A study of Mus musculus with 10 samples.

Results

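Matrix metalloproteinases (MMPs) and their tissue inhibitors (TIMPs) were examined in mouse mammary tumors and in macrophages sorted from them. The 10 genes are Mmp2, Mmp3, Mmp9, Mmp11, Mmp12, Mmp13, Mmp14, Mmp19, Timp1 and Timp2, taken by gene name. All 10 were listed among the 23202 genes of the macrophage table and among the 19720 genes of the whole-tumor table. Tumors arose in B6:MMTV-PyMT mice, in which a viral oncoprotein is driven mainly in the mammary epithelium, and were collected at 15 weeks of age. Mice of every group carried Cxcr4fl/fl, and the groups differed in LysmCre, a Cre recombinase expressed from a myeloid promoter that is active in macrophages and also in neutrophils. The macrophage libraries came from cells stained for F4/80 and CD11b, with 3 mice labelled cKO (Cxcr4fl/fl;LysmCre, mice 725, 746 and 867) and 3 control littermates with no Cre (mice 706, 720 and 775). The whole-tumor libraries came from 2 mice labelled cKO (725 and 746) and 2 controls (706 and 720). Thus 4 of the 6 mice had a library of both kinds. Tumor pairs were matched in size per the labels, which do not name the partners.

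MMPs are zinc-dependent endopeptidases that are made as inactive proenzymes and cut matrix proteins, growth factor carriers and cell surface proteins. TIMPs bind to the active site of MMPs and block it, and TIMP2 also forms a complex with MMP14 at the cell surface through which pro-MMP2 is activated. In mammary tumors these genes are known from fibroblasts, endothelial cells, macrophages and neutrophils as well as from the epithelium, with MMP12 best known as a macrophage elastase and MMP9 as a gelatinase of neutrophils and macrophages.

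Mmp13, Mmp12 and Mmp3 lie near each other on the plus strand of chromosome 9 in GRCm38 (GENCODE vM21), at 7272514 to 7283331, 7344381 to 7369499 and 7445822 to 7455975. Their promoters are shown because the values of these nearby genes differed across the macrophage libraries described below. Each line gives the 250 bases before a RefSeq transcript start on GRCm38.p6, 5′ to 3′ on the gene's strand, with matches to the AP-1 motif TGANTCA in capitals. The motif reads the same on both strands. For Mmp12 the window shown belongs to the second of 2 starts in the RefSeq table. Mmp14 is added as a gene with no AP-1 match, and its capitals mark 2 adjoining matches to the Sp1 motif GGGCGG.
Mmp13, chr9:7272264-7272513: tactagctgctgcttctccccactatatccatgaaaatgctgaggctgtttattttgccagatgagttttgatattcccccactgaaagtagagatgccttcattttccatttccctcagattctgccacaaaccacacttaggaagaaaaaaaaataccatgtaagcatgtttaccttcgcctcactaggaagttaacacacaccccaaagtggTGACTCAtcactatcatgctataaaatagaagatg
Mmp12, chr9:7347124-7347373: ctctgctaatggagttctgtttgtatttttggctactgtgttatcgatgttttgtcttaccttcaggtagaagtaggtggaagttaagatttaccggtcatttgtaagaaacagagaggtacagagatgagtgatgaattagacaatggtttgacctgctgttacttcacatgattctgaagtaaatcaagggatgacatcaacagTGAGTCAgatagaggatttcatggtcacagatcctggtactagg
Mmp3, chr9:7445572-7445821: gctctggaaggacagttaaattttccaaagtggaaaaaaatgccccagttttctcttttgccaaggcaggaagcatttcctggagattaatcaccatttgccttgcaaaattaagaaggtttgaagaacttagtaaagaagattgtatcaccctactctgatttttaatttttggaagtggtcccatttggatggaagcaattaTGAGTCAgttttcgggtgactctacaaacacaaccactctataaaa
Mmp14, chr14:54431348-54431597: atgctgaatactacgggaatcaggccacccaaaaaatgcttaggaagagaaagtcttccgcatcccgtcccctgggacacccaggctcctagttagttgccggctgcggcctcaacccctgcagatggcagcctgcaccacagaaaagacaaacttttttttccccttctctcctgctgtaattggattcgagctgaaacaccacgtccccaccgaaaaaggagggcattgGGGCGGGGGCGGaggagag
Promoter windows were found for 7 of the 10 genes, the others being Mmp2, Mmp9 and Mmp19. An AP-1 match was present in 3 of these 7 genes, at 35 to 29 bases before the start in Mmp13, 46 to 40 in Mmp3 and 44 to 38 in the Mmp12 window shown. The first Mmp12 window, at chr9:7344147-7344396, held none. Of 32851 promoter windows of the same length in the table, 6.75% held the AP-1 motif, against 3 of the 8 windows of the 7 genes. The Sp1 motif, searched on both strands, was present in Mmp11, Mmp14, Timp1 and Timp2, and in 32.7% of all windows. The motifs do not overlap each other in the windows shown, and a match is a description of the letters alone.

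Values are counts per 1e+06 reads (CPM), read from deposited log2(CPM + 1) values, and differences are those of log2(CPM + 1) in libraries labelled cKO minus controls. Depth was inferred from the steps between low values as 14.4 to 25.2 M reads (M, 1e+06) for macrophages and 34.2 to 53.4 M reads for tumors. A gene listed at 0 allows up to 0.119 to 0.208 CPM for macrophages and 0.0562 to 0.0878 CPM for tumors (3 reads, an error of counting alone). Weak genes often dropped out. Where the rest of a table averaged 1 to 2 CPM, between 24.5% and 56.3% of genes fell short of 3 reads in a single macrophage library, and between 36.5% and 47.8% in a single tumor library. Cxcr4, the targeted gene, was at 41.9, 165.2 and 24.1 CPM in macrophages of mice 725, 746 and 867 labelled cKO, against 14.4, 135.4 and 54.3 CPM in controls 706, 720 and 775. In tumors it was at 47.9 and 57.6 CPM in the libraries labelled cKO and at 29.8 and 33.4 CPM in controls. Loss of Cxcr4 was therefore not seen, and each direction below is that of the label. The F4/80 gene Adgre1 averaged 469 ± 108 CPM in macrophage libraries labelled cKO and 390 ± 133 CPM in controls (SD, n = 3 each). Epcam, an epithelial gene that macrophages lack, averaged 506 ± 95.3 CPM in macrophage libraries labelled cKO and 417 ± 104 CPM in controls (SD, n = 3 each), so the sorted libraries held epithelial RNA in every mouse. A lower value in such libraries or in a tumor cannot separate fewer cells of a type from less RNA per cell.

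None of the 10 genes passed the test in macrophages, where 0% of all 16304 genes tested did (limma, Benjamini-Hochberg adjusted p under 0.05). All 10 were tested, and each had an adjusted p of 0.9998. In 0 of the 10 did the libraries labelled cKO lie wholly above or wholly below the controls, while this held for 7.24% of all genes tested (3.78% higher and 3.45% lower). Differences were positive for 6 genes and negative for 4, with a median of 0.086 log2 units against 0.045 over all genes tested. Mmp9 and Mmp13 had the lowest unadjusted p-values of the 10, at 0.0349 and 0.0372, where 2.63% of all genes had an unadjusted p under 0.05. The 95% intervals were wide and reached from -3.53 log2 units for Mmp9 to 3.14 for Mmp3. The sign of the difference turned for Mmp2, Mmp11, Mmp12, Mmp14 and Timp2 when 1 library was left out.

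**Figure D1:**
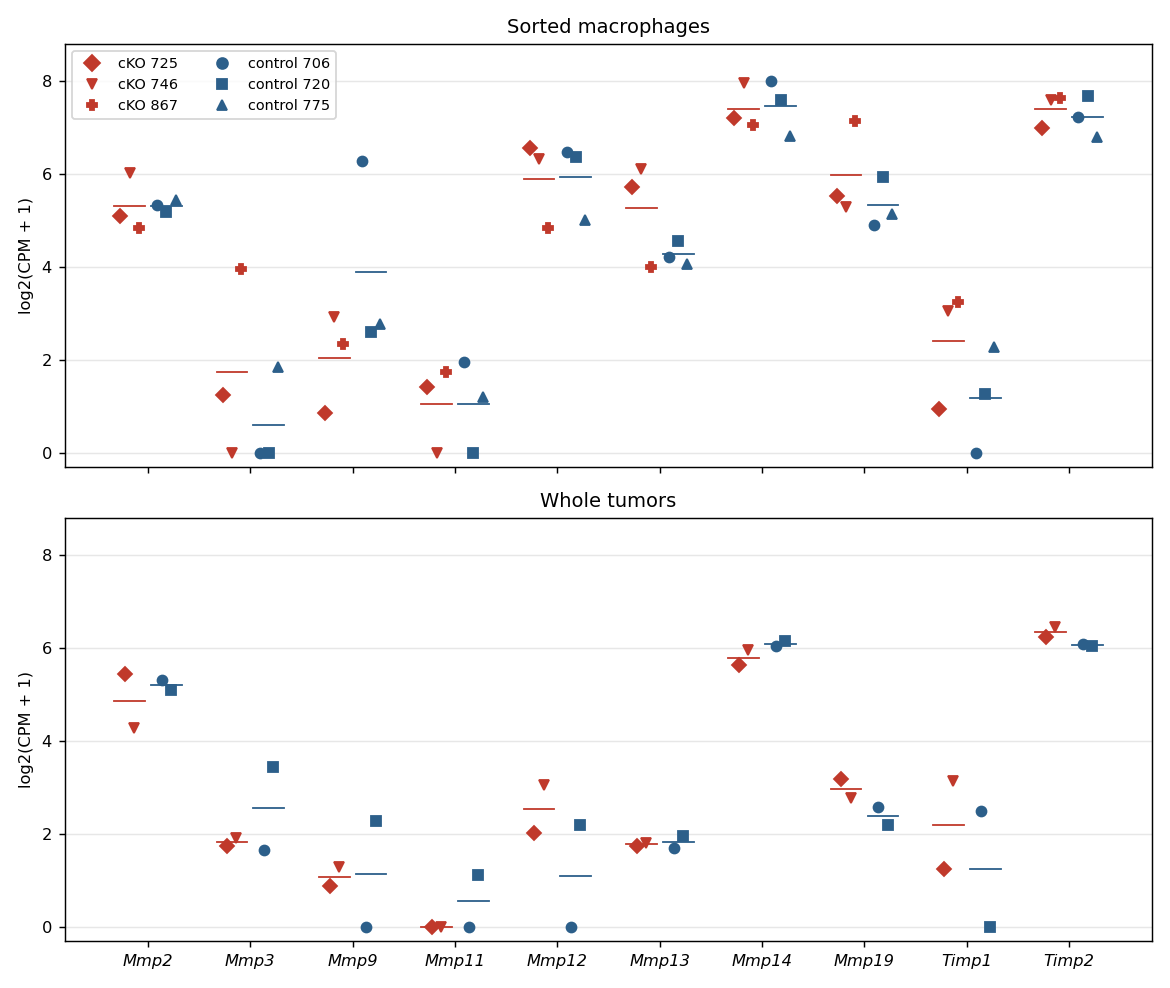
Values of the 10 genes in every library as log2(CPM + 1), in sorted macrophages (upper panel) and whole tumors (lower panel). Each symbol is a mouse, red for libraries labelled cKO and blue for controls, and the short lines are group means of the log2 values. The Mmp9 value of control 706 (77.5 CPM) and the Mmp3 and Mmp19 values of mouse 867 (14.7 and 139.6 CPM) stand above the others in macrophages.

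Of the gelatinases, which cut denatured collagen and basement membrane collagen, Mmp2 (chromosome 8, 92827291 to 92853420, plus strand) was nearly level between the groups of macrophages. It was at 33.1, 63.9 and 27.7 CPM in mice 725, 746 and 867 labelled cKO, against 39.5, 35.5 and 42.8 CPM in controls 706, 720 and 775. The libraries labelled cKO held both the highest and the lowest value, and the controls lay between them. The difference was -0.0077 log2 units (95% interval -0.72 to 0.70, limma adjusted p = 0.9998). Mouse 867, with the lowest Mmp2, had the highest summed level of 10 fibroblast markers, at 1310 CPM against 79.8 to 167 CPM in the other libraries labelled cKO and 66.3 to 506 CPM in controls. The sum and Mmp2 ran apart in mouse 867. There the sum was led by the collagen genes Col3a1, at 652 CPM, and Col1a1, at 259 CPM. Pdgfra, from the same list, was at 0.639 to 5.64 CPM in libraries labelled cKO and 5.70 to 8.91 CPM in controls. By mean log2 value, 8 of the 10 markers lay higher in libraries labelled cKO and 2 lay lower. The part of fibroblasts in the Mmp2 values of macrophages was not tested.

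Mmp9 (chromosome 2, 164940780 to 164955850, plus strand), the other gelatinase, was at 0.836, 6.60 and 4.13 CPM in mice 725, 746 and 867 labelled cKO, against 77.5, 5.07 and 5.87 CPM in controls 706, 720 and 775. Control 706 alone was high, and the other 5 libraries overlapped. Its 77.5 CPM correspond to 1115 reads, so the value does not rest on a handful of reads. The values of mice 725, 746 and 867 and control 720 were low. They were 1.417 to 2.693 times the peak read number of weak genes in the same library. This peak was taken from smoothed read numbers, leaving out the lowest and highest, of genes averaging under 5 CPM in the other libraries. The difference of -1.84 log2 units (95% interval -3.53 to -0.14, limma adjusted p = 0.9998) became -0.64 without control 706. Among the 7 listed of 8 neutrophil markers, the sum in control 706 was 68.9 CPM, within the 17.2 to 79.4 CPM of the controls and inside the range of 43.2 to 78.4 CPM in libraries labelled cKO. The neutrophil genes S100a9 and Ly6g were at 0 in control 706, as they were in mice 746 and 867 and in controls 720 and 775. Retnlg, another neutrophil gene, was at 6.25 CPM in control 706 and at 0 in the other 5 libraries. Other genes of the list were not high in control 706 alone. Mmp8 was at 10.2 CPM in control 720 against 2.29 CPM in control 706, and S100a8 had a median of 5.61 and a maximum of 5.63 CPM in controls. The sum was carried mainly by Csf3r and Il1r2, and the part of neutrophils in the Mmp9 value was not tested. The whole tumor of mouse 706 held 0 CPM of Mmp9.

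The stromelysins Mmp3, which cuts proteoglycans and activates other proenzymes, and Mmp11, a weak matrix protease best known from stroma around carcinomas, had the lowest mean levels per kb of the 10 genes in macrophages. Mmp3 in macrophages was at 1.38, 0 and 14.7 CPM in mice 725, 746 and 867 labelled cKO, against 0, 0 and 2.61 CPM in controls 706, 720 and 775. Mouse 867 was high, control 775 was next, and 3 libraries were listed at 0. The difference of 1.12 log2 units (95% interval -0.89 to 3.14, limma adjusted p = 0.9998) was 0.0073 without mouse 867. The same 2 mice had the highest sums of 8 endothelial markers, at 270.4 CPM in mouse 867 and 101.6 CPM in control 775, against 14.3 to 22.6 CPM in the other 4 libraries, and the highest sums of fibroblast markers, at 1310 and 506 CPM. The endothelial receptor gene Tie1 was at 0 in mouse 746 and in controls 706 and 720, the 3 libraries with no Mmp3, and Cldn5 and Egfl7 were at 0 in these and in mouse 725. The part of these cells in the Mmp3 values was not tested. Mmp11 (chromosome 10, 75923222 to 75936496, minus strand) was at 1.67, 0 and 2.38 CPM in mice 725, 746 and 867 labelled cKO, against 2.92, 0 and 1.30 CPM in controls 706, 720 and 775. The groups overlapped throughout, with a library at 0 in each, and the 95% interval of the difference was -1.80 to 1.80 log2 units (limma adjusted p = 0.9998). The 4 nonzero values were low, at 30 to 60 reads. This is 1.22 to 2.83 times the peak read number of weak genes in the same library (12 to 49 reads). The span of Mmp11 overlaps Chchd10 on the other strand.

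Mmp12, the macrophage elastase, was at 93.0, 79.2 and 27.6 CPM in mice 725, 746 and 867 labelled cKO, against 87.9, 81.4 and 31.1 CPM in controls 706, 720 and 775. A high level near 80 to 93 CPM in 4 libraries and a low level in mouse 867 and control 775 were thus found in both groups. The difference was -0.043 log2 units (95% interval -0.89 to 0.81, limma adjusted p = 0.9998). The 2 low libraries were those with the highest endothelial and fibroblast sums. The sum of 10 macrophage markers was low in control 775, at 1032 CPM, but not in mouse 867, at 2194 CPM, against 2003 to 2433 CPM in the other 4 libraries.

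Mmp13, the main interstitial collagenase of mice, was at 52.0, 67.8 and 15.0 CPM in mice 725, 746 and 867 labelled cKO, against 17.6, 22.6 and 15.9 CPM in controls 706, 720 and 775. Mice 725 and 746 lay above all controls, and mouse 867 lay just below them. The difference of 0.99 log2 units had a 95% interval of 0.064 to 1.92 (limma, unadjusted p = 0.0372, adjusted p = 0.9998). It was 1.63 without mouse 867 and 0.58 without mouse 746, and 1.53 among the 4 mice with both kinds of library, each time without passing the threshold over all genes. Mmp13 and Mmp12, neighbors on chromosome 9, were both lowest in mouse 867 and control 775. They differed in the other 4 libraries, where Mmp12 was at a like level and Mmp13 was higher in mice 725 and 746 than in controls 706 and 720. Mmp13 was at 0.559, 0.857 and 0.545 times the CPM of Mmp12 in mice 725, 746 and 867 and at 0.201, 0.278 and 0.511 times in controls 706, 720 and 775. For this ratio within a library, which is free of library scaling, all 3 libraries labelled cKO lay above all 3 controls, by a narrow gap between 0.545 in mouse 867 and 0.511 in control 775. The ratio was looked at after its values were known, was picked from many possible pairs and carries no test. How often such ratios separate over all pairs of genes was not computed. In tumors Mmp13 was at 0.778 and 0.348 times Mmp12 in mice 725 and 746 labelled cKO. It was at 0.808 times in control 720, and control 706 held no Mmp12.

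Mmp14 encodes a membrane-bound protease that cuts collagen at the cell surface and activates pro-MMP2. It lies on the plus strand of chromosome 14 at 54431612 to 54445364. It was at 146, 248.9 and 133 CPM in macrophages of mice 725, 746 and 867 labelled cKO, against 256, 192 and 112 CPM in controls 706, 720 and 775. Values of 112 to 256 CPM were spread over both groups without order. The difference of -0.066 log2 units had a 95% interval of -0.70 to 0.56 (limma adjusted p = 0.9998). Mmp19 (chromosome 10, 128790910 to 128800824, plus strand), a secreted MMP of macrophages and vessel walls, was at 45.0, 38.2 and 139.6 CPM in mice 725, 746 and 867 labelled cKO, against 29.1, 60.4 and 34.5 CPM in controls 706, 720 and 775. Mouse 867 alone was high, on 3512 reads. The difference of 0.65 log2 units (95% interval -0.18 to 1.48, limma adjusted p = 0.9998) was 0.075 without it. Control 775, the other library with high endothelial and fibroblast sums, had one of the lower Mmp19 values. Mmp19 overlaps Tmem198b on the other strand, which held 5.25 to 16.7 CPM in these libraries.

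Of the inhibitors, Timp1 (chromosome X, 20870166 to 20874735, plus strand) was at 0.934, 7.35 and 8.50 CPM in macrophages of mice 725, 746 and 867 labelled cKO, against 0, 1.42 and 3.91 CPM in controls 706, 720 and 775. Mice 746 and 867 lay above every control, and mouse 725 lay within the controls. The values of mice 746 and 867 were 2.999 and 4.367 times the peak read number of weak genes in the same library. That of control 775 was 6.923 times. The difference was 1.23 log2 units (95% interval -0.53 to 2.99, limma adjusted p = 0.9998). Timp1 overlaps Syn1, a gene on the other strand with 0 to 3.66 CPM here. Timp2 (chromosome 11, 118301069 to 118355740, minus strand) was abundant and even, at 127, 193 and 197 CPM in mice 725, 746 and 867 labelled cKO, against 150.1, 204 and 110.4 CPM in controls 706, 720 and 775. The groups overlapped, with a difference of 0.17 log2 units (95% interval -0.40 to 0.74, limma adjusted p = 0.9998).

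**Figure D2:**
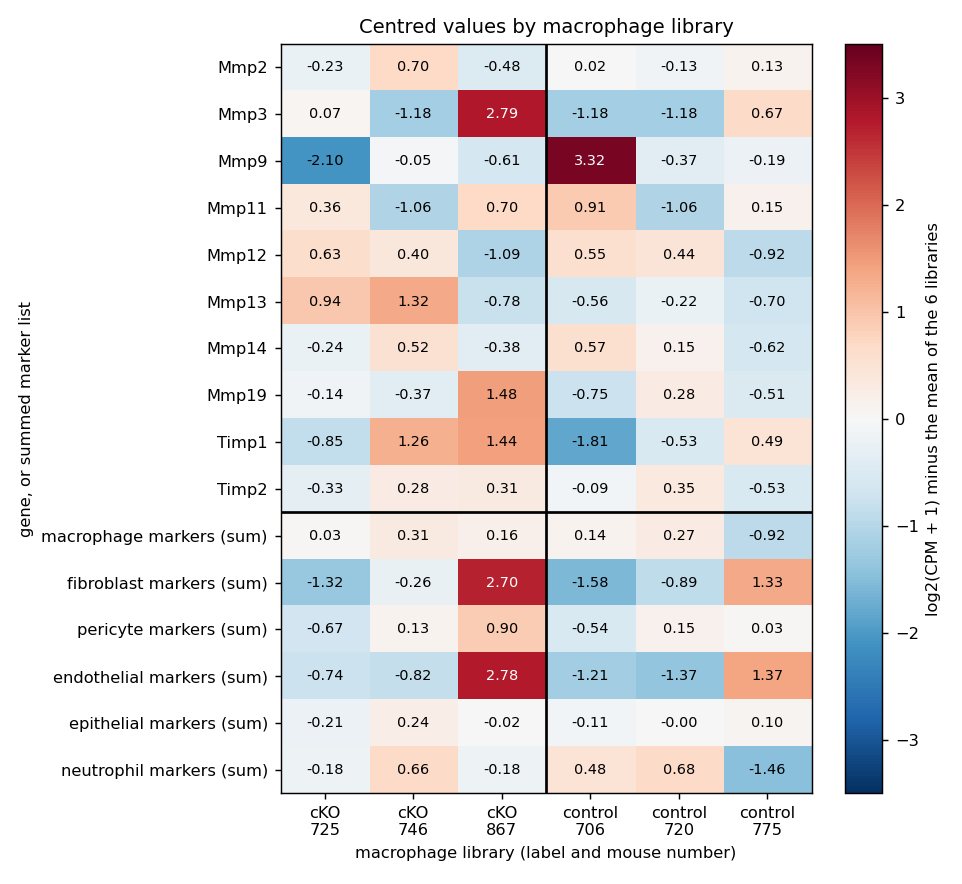
Centred values of the 10 genes and of the summed marker lists in the 6 macrophage libraries, as log2(CPM + 1) minus the mean of the 6, with libraries labelled cKO left of controls. Mouse 867 is highest for Mmp3, Mmp19 and the fibroblast and endothelial sums, control 706 is highest for Mmp9, and mice 725 and 746 are highest for Mmp13.

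Whole tumors gave no call either. Of the 10 genes 9 were tested, since Mmp11 had a mean under 1 CPM, and 0 passed the test, as did 0% of all 14630 genes tested (limma, Benjamini-Hochberg adjusted p under 0.05). The groups did not overlap for 3 of the 9, Mmp19 and Timp2 being higher and Mmp14 lower in both tumors labelled cKO. With 2 libraries a group this held for 35.5% of all genes tested (21.2% higher and 14.3% lower), so 3 of 9 is near the background. None of the 9 had an unadjusted p under 0.05, against 5.85% of all genes tested (limma). The median difference of the 9 was -0.045 log2 units, against 0.089 over all genes tested.

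Mmp14 was at 48.2 and 61.1 CPM in tumors of mice 725 and 746 labelled cKO, against 64.4 and 69.7 CPM in controls 706 and 720. Both tumors labelled cKO lay below both controls, by -0.30 log2 units (95% interval -0.84 to 0.24, limma adjusted p = 0.880). Timp2 was at 73.9 and 86.8 CPM in mice 725 and 746 labelled cKO, against 66.5 and 64.8 CPM in controls 706 and 720. Both tumors labelled cKO lay above both controls, by 0.28 log2 units (95% interval -0.22 to 0.79, limma adjusted p = 0.879). Mmp19 was at 8.12 and 5.78 CPM in mice 725 and 746 labelled cKO, against 5.01 and 3.56 CPM in controls 706 and 720, a difference of 0.59 log2 units (95% interval -0.85 to 2.03, limma adjusted p = 0.909). Per kb of exon, Timp2 was 2.34 and 2.17 times Mmp14 in tumors of mice 725 and 746 labelled cKO, and 1.58 and 1.42 times in controls 706 and 720. With Timp2 higher and Mmp14 lower in both tumors labelled cKO, this separation was fixed and is no further result. With the longest transcript as length the ratios were 1.34 and 1.24 in mice 725 and 746 labelled cKO, and 0.902 and 0.812 in controls 706 and 720, so which of the genes was higher in controls depends on the length. In macrophages the ratio per kb of exon was 1.33, 1.19 and 2.27 in mice 725, 746 and 867 labelled cKO and 0.895, 1.62 and 1.503 in controls 706, 720 and 775, where the groups overlapped.

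The fibroblast sum was also lower in the tumors labelled cKO, at 476 and 584 CPM in mice 725 and 746, against 768 and 952 CPM in controls 706 and 720. Of its 10 markers 9 had a negative difference. Pdgfra went the other way, with means of 14.1 CPM in tumors labelled cKO and 12.3 CPM in controls. The part of fibroblasts in the Mmp14 and Mmp2 values was not tested. The macrophage sum was 145 and 123 CPM in tumors labelled cKO and 151 and 138 CPM in controls. Mmp2, the other gene of the pair activated at the cell surface, was not ordered by group. It was at 42.3 and 18.3 CPM in mice 725 and 746 labelled cKO, against 38.6 and 33.1 CPM in controls 706 and 720. The tumors labelled cKO held its highest and lowest value, and its difference of -0.34 log2 units (95% interval -1.14 to 0.45, limma adjusted p = 0.906) turned to 0.24 without mouse 746.

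The remaining genes were weak in tumors. Mmp3 was at 2.36 and 2.77 CPM in mice 725 and 746 labelled cKO, against 2.14 and 9.89 CPM in controls 706 and 720, with control 720 alone high. Mmp9 was at 0.843 and 1.44 CPM in tumors labelled cKO, against 0 and 3.84 CPM in controls 706 and 720. Mmp12 was at 3.03 and 7.23 CPM in tumors labelled cKO, against 0 and 3.58 CPM in controls 706 and 720. For both genes the controls lay far apart and the groups overlapped. Mmp13 was at 2.36 and 2.51 CPM in tumors labelled cKO, against 2.22 and 2.89 CPM in controls. These were 1.333 to 2.225 times the peak read number of weak genes in the same library. Such values cannot show whether the high Mmp13 in macrophages of mice 725 and 746 was matched in their tumors. Timp1 was at 1.39 and 7.82 CPM in mice 725 and 746 labelled cKO, against 4.60 and 0 CPM in controls 706 and 720, and Mmp11 was read only in control 720, at 1.18 CPM. Differences of the 5 tested genes of this group ranged from -0.72 log2 units for Mmp3 to 1.43 for Mmp12, with limma adjusted p from 0.851 to 0.997.

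**Figure D3:**
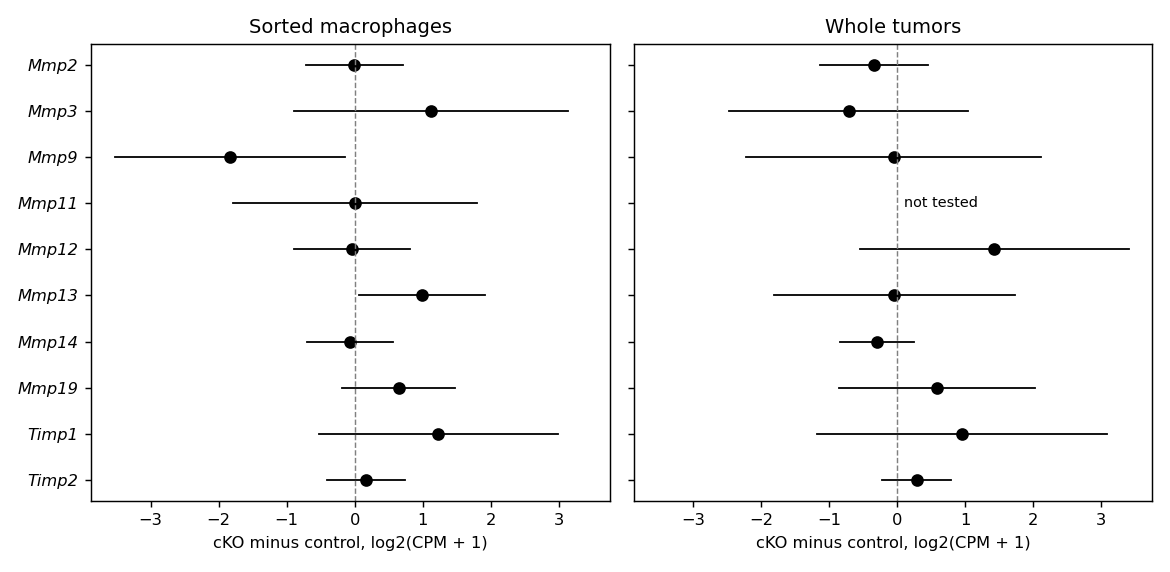
Differences of the 10 genes between libraries labelled cKO and controls on the log2(CPM + 1) scale (points) with 95% intervals from limma (lines), in macrophages on the left and whole tumors on the right. Positive values are higher in libraries labelled cKO. Only the macrophage intervals of Mmp9 (-3.53 to -0.14) and Mmp13 (0.064 to 1.92) leave out 0, before adjustment over all genes.

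Macrophages and tumor of the same mouse were set side by side in the 4 mice with both. The tables were normalized separately, protein-coding genes taking 67.6% to 80.1% of the macrophage CPM and 49.7% to 56.5% of the tumor CPM, so no test was made. Mmp12, Mmp13, Mmp14, Mmp19 and Timp2 were higher in macrophages than in the tumor in 4 of 4 mice, also after scaling both tables to protein-coding genes. Mmp12 stood apart by 3.28 to 6.47 log2 units, Mmp13 by 2.53 to 4.29, Mmp19 by 2.33 to 3.75, Mmp14 by 1.45 to 2.01 and Timp2 by 0.77 to 1.64. The 6.47 of Mmp12 came from control 706, whose tumor was listed at 0 CPM, and the other mice reached at most 4.54. The macrophage marker sum was 2003 to 2433 CPM in these macrophage libraries, against 123 to 151 CPM in the tumors. The epithelial marker sum was also higher in the macrophage libraries of all 4 mice, at 2471 to 3358 CPM against 1559 to 1818 CPM in the tumors, and its part in these differences was not tested. The markers of this list did not move as one. Esrp1 and Krt5 had lower group means in macrophages than in tumors, and the other markers had higher ones. Esrp1 was at 307 to 517 CPM over all macrophage libraries, against 537 to 672 CPM in tumors. For Mmp13 the 2 mice labelled cKO had the wider gap, with 52.0 and 67.8 CPM in macrophages of 725 and 746 over 2.36 and 2.51 CPM in their tumors, against 17.6 and 22.6 CPM over 2.22 and 2.89 CPM in controls 706 and 720. Mmp3 ran the other way and was lower in macrophages than in the tumor in all 4 mice, by -0.50 to -3.44 log2 units, with 3 of these macrophage libraries listed at 0. Mmp2 was within 0.34 log2 units of its tumor in 3 mice and 1.75 higher in macrophages of mouse 746. After scaling to protein-coding genes Mmp2 was higher in macrophages in 1 of 4 mice, where it had been in 3 of 4. Mmp9, Mmp11 and Timp1 had no common direction.

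**Figure D4:**
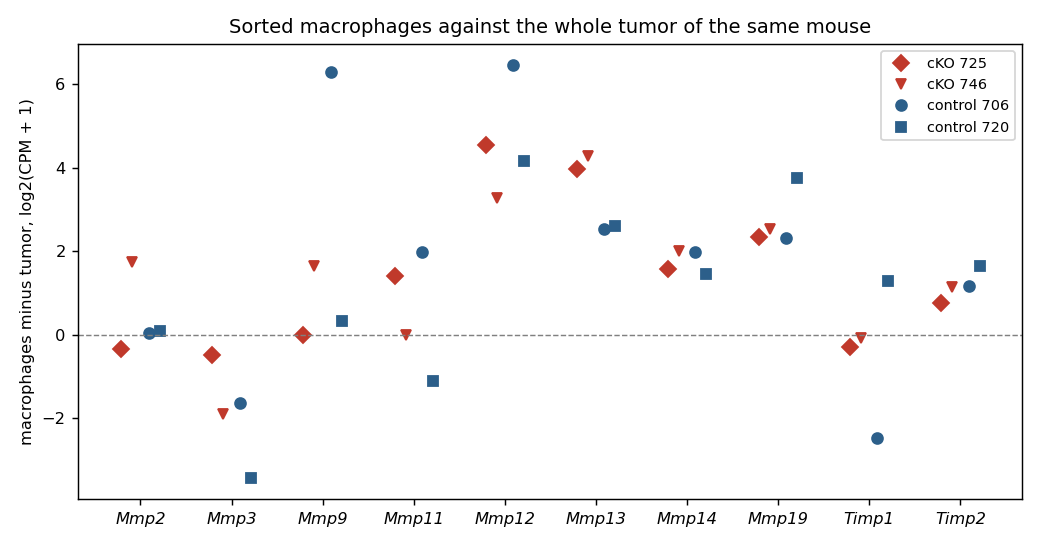
Difference between sorted macrophages and the whole tumor of the same mouse on the log2(CPM + 1) scale, for mice 725 and 746 labelled cKO (red) and controls 706 and 720 (blue). All 4 mice lie above 0 for Mmp12, Mmp13, Mmp14, Mmp19 and Timp2 and below 0 for Mmp3, without a test because the tables were normalized separately.

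Levels of different genes were compared as CPM per kb of annotated exon. In macrophages Timp2 led at 42.0 ± 10.3 CPM per kb (SD, n = 6), above Mmp14 at 30.5 ± 10.3 in 5 of 6 libraries. Mmp19 followed at 16.4 ± 11.7, then Mmp2 at 11.99 ± 3.74, Mmp13 at 11.9 ± 8.41 and Mmp12 at 9.22 ± 4.06 CPM per kb, whose ranges all overlapped. Mmp9, Timp1, Mmp3 and Mmp11 had medians of 1.55, 3.01, 0.382 and 0.536 CPM per kb. With the longest transcript of each gene as its length, Mmp14 came first at 56.1 CPM per kb and Mmp12, at 14.9, ahead of Mmp2 and Mmp13, so the order of Timp2 and Mmp14, and of Mmp2, Mmp13 and Mmp12, depends on the length used. In tumors Timp2 at 18.7 ± 2.57 CPM per kb (SD, n = 4) was above Mmp14 at 10.2 ± 1.53 in 4 of 4 libraries, and Mmp2 at 9.81 ± 3.12 overlapped Mmp14. With the longest transcript as length Timp2 was above Mmp14 in 2 of 4 tumors, with means of 19.7 and 18.8 CPM per kb, and Mmp2 at 10.7 lay further below Mmp14. The 7 others had means of 0.106 to 3.89 CPM per kb. Per kb of exon, the levels of the MMPs among the 10 genes were summed. Mmp14 made up 24.9% to 38.1% of this sum in macrophages labelled cKO and 34.2% to 41.1% in controls. Mmp19 made up 44.1% of it in mouse 867 and Mmp9 20.9% in control 706, against at most 21.1% and 3.01% in the other 5 libraries. Other MMPs were left out of the sum, such as Mmp15, averaging 81.5 CPM in macrophages labelled cKO and 62.7 CPM in controls. The shares were not computed with the longest transcript as length.

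**Figure D5:**
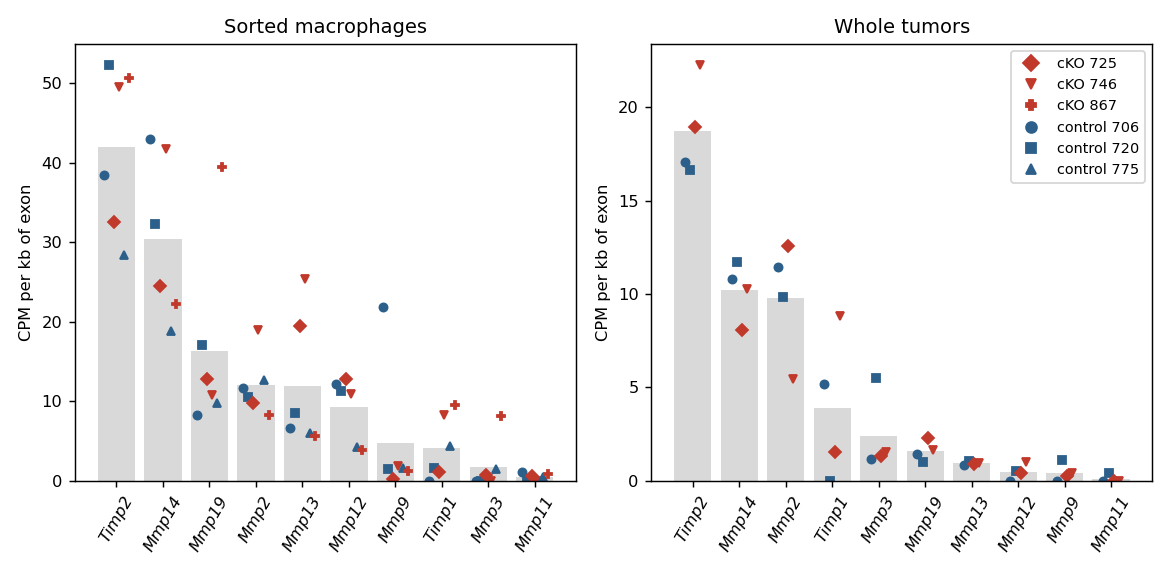
Levels of the 10 genes as CPM per kb of annotated exon, in macrophages (left) and whole tumors (right), ordered by their mean in each table. Bars are means over all libraries of the table and symbols are single libraries, red for cKO and blue for control labels. Timp2 and Mmp14 lead both panels, and Mmp2 lies close to Mmp14 in tumors (9.81 against 10.2 CPM per kb) with this length, but not with that of the longest transcript (10.7 against 18.8).

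Other genes of the system did not pass the test in either table. Of 17 further MMPs and TIMPs, 10 were listed and 6 tested in macrophages, and 7 listed and 4 tested in tumors, with medians of 0.18 log2 units in both. Mmp21, an MMP best known from embryonic laterality, was at 0.688, 2.65 and 2.702 CPM in macrophages of mice 725, 746 and 867 labelled cKO, against 0.0695, 0 and 0.348 CPM in controls 706, 720 and 775 (difference 1.33, limma adjusted p = 0.9998). The 3 libraries labelled cKO were all above the 3 controls, as was the case for 3.78% of all genes tested, at levels of few reads. In mouse 725 it was 14 reads, 1.167 times the peak read number of weak genes there. Mmp8, the neutrophil collagenase, was at 1.82, 1.10 and 0 CPM in the libraries labelled cKO and 2.29, 10.2 and 0.826 CPM in controls. Timp3, a matrix-bound inhibitor, was at 569 and 380 CPM in tumors of mice 725 and 746 labelled cKO, against 235 and 393 CPM in controls 706 and 720 (difference 0.61, limma adjusted p = 0.819). Mmp15, a membrane-type MMP, was at 50.9 and 52.2 CPM in tumors labelled cKO and 52.5 and 40.6 CPM in controls.

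Among 24 activators, inhibitors and partners, 20 were tested in macrophages (12 positive, 8 negative) and 19 in tumors (11 positive, 8 negative). Furin, a convertase that activates pro-MMP14, was at 39.9 and 63.1 CPM in tumors of mice 725 and 746 labelled cKO, against 34.8 and 28.0 CPM in controls 706 and 720 (difference 0.67, limma adjusted p = 0.833). Pcolce, an enhancer of procollagen processing, was listed at 0 in both tumors labelled cKO and at 3.89 and 2.21 CPM in controls 706 and 720 (limma adjusted p = 0.833). In macrophages Pcolce was at 1.08, 3.55 and 1.95 CPM in libraries labelled cKO and 0, 0.0445 and 2.00 CPM in controls. Cldn1, a tight junction gene that can recruit pro-MMP2, was at 237 ± 61.1 CPM in macrophages labelled cKO and 168 ± 68.1 CPM in controls (SD, n = 3 each, limma adjusted p = 0.9998).

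Of 16 ADAM and ADAMTS genes, relatives of the MMPs with a disintegrin domain, 15 were tested in macrophages (10 positive, 5 negative) and 14 in tumors (8 positive, 6 negative). Adamts12 was at 6.50 and 7.599 CPM in tumors of mice 725 and 746 labelled cKO, against 15.2 and 20.004 CPM in controls 706 and 720, a difference of -1.20 log2 units (limma adjusted p = 0.829). Adamts2, the procollagen N-proteinase, was at 21.4 and 21.5 CPM in tumors labelled cKO and 16.7 and 10.4 CPM in controls. In macrophages Adamts9 was at 4.82, 5.25 and 69.0 CPM in mice 725, 746 and 867 labelled cKO, against 5.97, 1.38 and 9.9997 CPM in controls 706, 720 and 775. Adamts12 was at 1.33, 6.85 and 23.5 CPM in those labelled cKO, against 0, 2.36 and 9.70 CPM in controls. Both were highest in mouse 867 and next highest in control 775, like Mmp3.

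The genes most like each member over the 6 macrophage libraries were taken by the smallest root mean square (RMS) distance between centred log2 values, among 10215 genes averaging 5 CPM or more. With so many genes and 6 libraries, close matches occur for any pattern, and they are given as a description. Nearest to Mmp3 were Tie1 and Kdr, receptors of endothelial cells, and Clec10a, a lectin of macrophages and dendritic cells, at distances of 0.30, 0.44 and 0.43 log2 units where Mmp3 itself had an RMS spread of 1.44. Nearest to Mmp9 were Rad54b, a recombination gene, Arg1, an arginase of alternatively activated macrophages, and Ctsk, a collagen-cutting cathepsin, at 0.71, 0.81 and 0.84. Ctsk was at 58.3 CPM in control 706 and at most 4.85 CPM in the other 5 libraries, and Arg1 was at 135.5 CPM there against 16.6 to 47.7 CPM. Nearest to Mmp12 were Spn and Cd244a, surface proteins of blood cells, and Gdf3, a growth factor, at 0.094, 0.095 and 0.12, all low in mouse 867 and control 775. Nearest to Mmp19 were Fscn1, an actin-bundling gene, Clec4a1, a myeloid lectin, and Serpinb8, a protease inhibitor, at 0.13, 0.18 and 0.20. For Mmp13 the nearest were Commd4, Lrrc3 and the pseudogene Rps15a-ps5 at 0.22 to 0.31. For Mmp14 they were Got2, Rps6ka1 and Rap1gap2 at 0.063 to 0.092, and for Mmp2 Fam32a, Decr1 and Natd1 at 0.10 to 0.12. For Timp2 they were Prrc2a, Btbd9 and Sbf1 at 0.065 to 0.069. For Mmp11 they were Zfp101, Zfp81 and Harbi1 at 0.11 to 0.22, and for Timp1 Arvcf, Tasp1 and Blm at 0.24 to 0.36.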

How the data were processed

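RNA sequencing libraries of sorted macrophages (6) and whole tumors (4) were analysed. Per the labels' protocols, ribosomal RNA was removed with a depletion kit. GRCm38 (mm10) was the build, with Partek and STAR 2.7.8a among the tools, per the submitters' processing notes. The strand setting, annotation and normalization formula are not given in the sources used here. The authors deposited log2 values, and 2 to the power of each value minus 1 sums to 1e+06 per library, so they were read as log2(CPM + 1). Gene starts in the tables equal those of GENCODE vM21 (GRCm38) for 2.19% and 2.29% of genes found by identifier, so positions given here are those of GENCODE vM21 by gene identifier. Within 0.1 read, 82.8% to 88.9% of values up to 40 reads were whole, under the 95% set for a count test, so none was run.

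The tables were fitted separately in limma 3.58.1 (R 4.3.3, lmFit, eBayes with trend) on genes averaging 1 CPM or more, two-sided, Benjamini-Hochberg adjusted with a threshold of 0.05. Fold changes on this scale understate those of weak genes. The fit was tested on simulated data. Members and lists were chosen with earlier results of these data known. Named beside the members are, per list and table, the 2 genes with the lowest unadjusted p. Also named are Cxcr4, single genes of the marker lists and, for each member, the 3 nearest genes over the macrophage libraries, without predicted genes. Alternatives were pseudocounts of 0.1 and 5, other filters, trimmed mean scaling, scaling to protein-coding genes, eBayes without trend, each library left out and the 4 shared mice. Each library comes from a different mouse within its table. Promoters are from RefSeq (GRCm38.p6). Exon lengths are unions over GENCODE vM21 transcripts, with the longest transcript as an alternative chosen after seeing the data.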

Additional observations from a re-analysis of the deposited data

How the results depend on the processing

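No paired analysis was possible because the groups compared share no mouse number and the labels do not name the partners of the size-matched tumors. None of the 19 differences passed the threshold in any of 231 refits, and 203 of these kept the direction, which says little where the main difference is near 0. Outside the refits that left out 1 library, the sign turned in 9. Among the 4 mice with both kinds of library the macrophage differences were 0.29 for Mmp2, -0.28 for Mmp11, 0.020 for Mmp12, -0.018 for Mmp19 and -0.16 for Timp2. Mmp11 in macrophages was at -0.0063 with a pseudocount of 5 and -0.046 when scaled to protein-coding genes. Mmp9 in tumors was at 0.94 with a pseudocount of 0.1 and 0.037 when scaled to protein-coding genes. With 1 library left out, macrophage differences ranged from -0.36 to 0.23 for Mmp2, 0.0073 to 1.99 for Mmp3, -2.48 to -0.64 for Mmp9, -0.53 to 0.53 for Mmp11, -0.51 to 0.49 for Mmp12, 0.58 to 1.63 for Mmp13, -0.39 to 0.20 for Mmp14, 0.075 to 0.996 for Mmp19, 0.63 to 1.96 for Timp1 and -0.049 to 0.39 for Timp2. Tumor differences ranged from -0.93 to 0.24 for Mmp2, -1.61 to 0.18 for Mmp3, -1.19 to 1.08 for Mmp9, 0.33 to 2.53 for Mmp12, -0.18 to 0.092 for Mmp13, -0.47 to -0.13 for Mmp14, 0.37 to 0.80 for Mmp19, -0.29 to 2.198 for Timp1 and 0.17 to 0.40 for Timp2. In tumors a group of 1 library is then assumed to vary like the other group. The number of genes past the threshold was 0 to 3 over the macrophage libraries left out in turn, the 3 calls coming without control 775, and 0 in every other refit of either table. None of the 3 was a member. Scaling to protein-coding genes moved the median of all genes in tumors from 0.089 to -0.013, and the differences of Mmp14, Mmp19 and Timp2 kept their sign. With genes averaging 5 CPM or more, Mmp3, Mmp11 and Timp1 in macrophages, and Mmp3, Mmp9, Mmp12, Mmp13 and Timp1 in tumors, were not tested. Depth limits Mmp3, Mmp11 and Timp1, whose values rest on 0 to 370 reads, and in tumors also Mmp9, Mmp12 and Mmp13, at 0 to 256 reads.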
